A study of Homo sapiens with 6 samples.

Results

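The mitochondrial ribosomal protein genes were examined in HEYA8, an established line of human ovarian cancer cells whose source the submitters give as low grade serous carcinoma. Members were taken by name, as the rows whose identifier begins with MRPL or MRPS followed by a number. This gave 76 of the 20061 rows, 47 MRPL genes and 29 MRPS genes. All 76 had been tested by the authors and none was lost to a filter on low values.

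Both groups carried a lentiviral short hairpin RNA that was stably expressed and selected with puromycin. In the control group it was directed at luciferase, which human cells lack (shLuciferase, 3 samples), and in the other at ETS1, which encodes a DNA-binding transcription factor (shETS1, 3 samples). The sample titles name no other treatment. The labels name 1 hairpin target per group. Whether its samples came from different cultures is not stated in them, and p-values of the authors may thus measure technical spread only. Each value below is the authors' single FPKM per gene and group (fragments per length of transcript and per number of mapped fragments), which the 3 samples of a group were combined to give. No level per sample, no SD and no depth could therefore be given, and all log2 fold changes are shETS1 over shLuciferase, computed from the pairs of group levels.

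The targeted gene went from 41.4 FPKM with the luciferase hairpin to 17.9 FPKM with its own, a log2 fold change of -1.21, for which the authors' deposited table gives q = 0.00964. Of 10 markers of ovarian carcinoma and epithelium, 9 reached 1 FPKM in both groups and MUC16 did not. Several of the 9 were low in shLuciferase and shETS1: SOX17 (1.15 and 2.38 FPKM), EPCAM (1.71 and 1.82 FPKM), KRT19 (3.55 and 3.80 FPKM) and WT1 (3.58 and 3.13 FPKM). MSLN was at 17.9 and 26.5 FPKM. The list summed to 5252 FPKM in shLuciferase against 3810 FPKM in shETS1, most of it from the keratins KRT18 (2044 and 1498 FPKM), KRT8 (1913 and 1288 FPKM) and KRT7 (1187 and 910 FPKM), none of them called, while the lineage factor PAX8 was at 79.7 and 76.8 FPKM. None of 4 leukocyte markers reached 1 FPKM in either group. Among 4 fibroblast markers COL1A1 alone did, and the list summed to 1.30 FPKM in shLuciferase against 3.79 FPKM in shETS1. Among the 3 endothelial markers found CDH5 alone did, and that list summed to 17.9 against 5.26 FPKM. Both COL1A1, higher in shETS1, and CDH5, lower, have q = 0.00964 in the authors' deposited table, below the limit of 0.05 used for calls. ETS1 shares this q-value, and its deposited p-value of 5e-05 is the smallest there. It is thus the lowest q-value given, and does not rank these genes. The part of these markers in the results below was not tested. Since RNA was measured in bulk, less RNA per cell and fewer cells with the RNA cannot be told apart.

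Mitochondrial ribosomes translate the small set of messages that the mitochondrial genome encodes, all of them for subunits of the oxidative phosphorylation complexes. Their RNA is made inside the organelle, but every one of their proteins is encoded in the nucleus, translated in the cytosol and imported. The large subunit forms peptide bonds and holds the exit tunnel, and the small subunit binds the message and decodes it. Promoters of nuclear genes for mitochondrial proteins are known for sites of the ETS family factor GABP and of NRF1, and all ETS factors read a GGAA core.

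Because the lowered gene belongs to that family, the promoter sequences of the members were searched for the ETS core with its usual flank, CCGGAA, on both strands. RefSeq promoter windows of 300 bases (250 before to 50 after a gene's start, GRCh38.p14) were matched for 68 of the 76 members, MRPS36 under its present symbol KGD4. MRPL2, MRPL10, MRPL13, MRPL15, MRPL21, MRPL23, MRPL35 and MRPS28 had no match in the table. A core was present for 43 of these 68 members (63.2%), against 36.8% of the 8649 expressed genes with an entry and 17.2% of all 35116 windows. A gene counts where any of its windows holds a core; counted by window, the share in the family was 46 of 84 (54.8%). A core was found for 27 of 40 MRPL genes and 16 of 28 MRPS genes. With the longer form CCGGAAGT the shares were 17.6% of members, 10.97% of expressed genes and 4.14% of all windows. A match is a stretch of letters and no measured binding site, and the tables hold no binding data.

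Of the 43 members with a core, 37 had one between 100 bases before and 50 bases after a start, as did 2332 of the 3182 expressed genes with a core. In all, 22 members had 2 or more in 1 window, where TTCCGGAA counts as 2 overlapping matches. The stretch just before the start is shown for 2 genes that carry 3 cores each, one with a slightly higher and one with a lower level in shETS1, and for 2 genes with no core in any listed window, one with the lowest fold change of the family and one among the highest. Capitals mark each core on either strand, and sequences read in the gene's direction.
MRPL51 (chr12:6493263-6493412, minus strand): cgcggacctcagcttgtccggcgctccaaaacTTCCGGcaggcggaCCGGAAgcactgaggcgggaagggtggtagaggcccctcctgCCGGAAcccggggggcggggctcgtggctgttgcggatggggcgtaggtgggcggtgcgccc
MRPS34 (chr16:1773135-1773284, minus strand): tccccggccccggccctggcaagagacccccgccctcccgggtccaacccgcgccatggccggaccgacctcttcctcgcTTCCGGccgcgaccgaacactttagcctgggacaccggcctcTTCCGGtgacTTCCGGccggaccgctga
MRPL4 (chr19:10251801-10251950, plus strand): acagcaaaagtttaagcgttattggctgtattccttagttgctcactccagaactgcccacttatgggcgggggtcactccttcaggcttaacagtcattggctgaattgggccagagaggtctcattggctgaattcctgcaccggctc
MRPS14 (chr1:175023426-175023575, minus strand): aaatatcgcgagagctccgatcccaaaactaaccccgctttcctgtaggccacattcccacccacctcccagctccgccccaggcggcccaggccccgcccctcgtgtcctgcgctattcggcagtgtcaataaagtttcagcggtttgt

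Shorter windows of 30 bases show other arrangements: cores in tandem, directly adjoining (MRPL43) or with a single base between them (MRPL44), the palindrome in which both strands carry a core (MRPL54, MRPS18A) and the extended form (MRPL20).
MRPL43 (chr10:100987501-100987530, minus strand): gcggtcgtcCCGGAACCGGAAgcctcgagg
MRPL44 (chr2:223957383-223957412, plus strand): cgttccgcgTTCCGGgTTCCGGgggaagtg
MRPL54 (chr19:3762653-3762682, plus strand): actgacgtcTTCCGGAAacgtgcacttgca
MRPS18A (chr6:43687804-43687833, minus strand): ggcgctacgTTCCGGAAgcggaaatggacg
MRPL20 (chr1:1407317-1407346, minus strand): accttcgccCCGGAAgtatcgcaggggctg

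Members with and without the core had like fold changes. The median log2 fold change of the 43 with a core was 0.037, with 27 above 0, and that of the 25 without one 0.042, with 17 above 0. Over expressed genes the medians were 0.033 with a core and 0.0067 without. For the longer form CCGGAAGT, the 12 members with it had a median of 0.0075, with 6 above 0. The 56 without it had 0.038, with 38 above 0. Over expressed genes these medians were 0.041 with the longer form and 0.013 without. The differences were not tested. MRPL51, with 3 cores, stood at 392 and 427 FPKM (here and below the control level comes first), and MRPS34, also with 3, at 220 and 176 FPKM. MRPL4, with none, was at 183 and 138 FPKM. MRPS14, likewise with none, was at 9.99 and 13.6 FPKM.

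**Figure D1:**
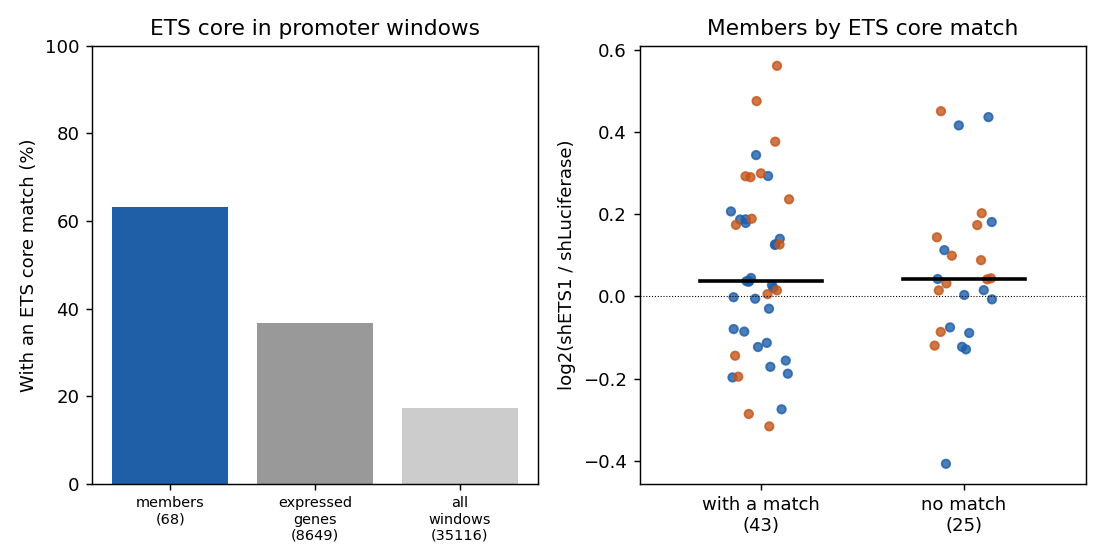
Left, share with an ETS core on either strand (vertical axis, %): of members and of expressed genes, counted by gene with a core in any of its windows, and of all windows, counted singly, with the number searched in parentheses. Right, on the vertical axis, the log2 ratio of shETS1 to shLuciferase for each member with (43) or without (25) a core, blue for MRPL and orange for MRPS genes, with black bars at the medians; horizontal scatter within a class carries no value. The share is 63.2% of members against 36.8% of expressed genes, and the medians are 0.037 and 0.042.

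The question put to the 2 groups is which RNAs differ once ETS1 is lowered. No mitochondrial ribosomal protein gene had a q of at most 0.05 (called) in the authors' deposited table, where 0.812% of all 11952 tested rows were called. The lowest q-value of any member there was 0.600. At an unadjusted p under 0.05 there was 1 member of 76 (MRPS36), or 1.32%, against 6.94% of all tested rows. The 46 members above 0 and 30 below 0 had a median log2 ratio of 0.034, beside 0.015 over all 10676 expressed rows (a mean of at least 1 FPKM), of which 52.6% were above 0. The summed level of the family was 7138 FPKM with the control hairpin against 7086 FPKM, a ratio of 0.993.

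With 0.812% of all tested rows called, the lack of a call among 76 genes says little about them. Changes of the members were small in size. The log2 fold changes of the members ran from -0.41 (MRPL4) to 0.56 (MRPS36). Of the 76, 61 (80.3%) lay within 0.25 log2 units of no change and 30 within 0.1, whereas 66.9% of the 7043 tested rows at levels within the range of the members lay within 0.25. These rows share the range of the members but were mostly less abundant, with a median of 19.8 FPKM in shLuciferase against 66.8 FPKM for the members. In those 7043 rows, 327 (4.64%) had a larger change than any member. Among the 106 of them with a p-value from 0.04 to 0.06 in the authors' deposited table, the median change was 1.40-fold, and the smallest called change was 1.83-fold. Most member changes were smaller than either size, and a small common shift of the family could not be tested from group values.

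**Figure D2:**
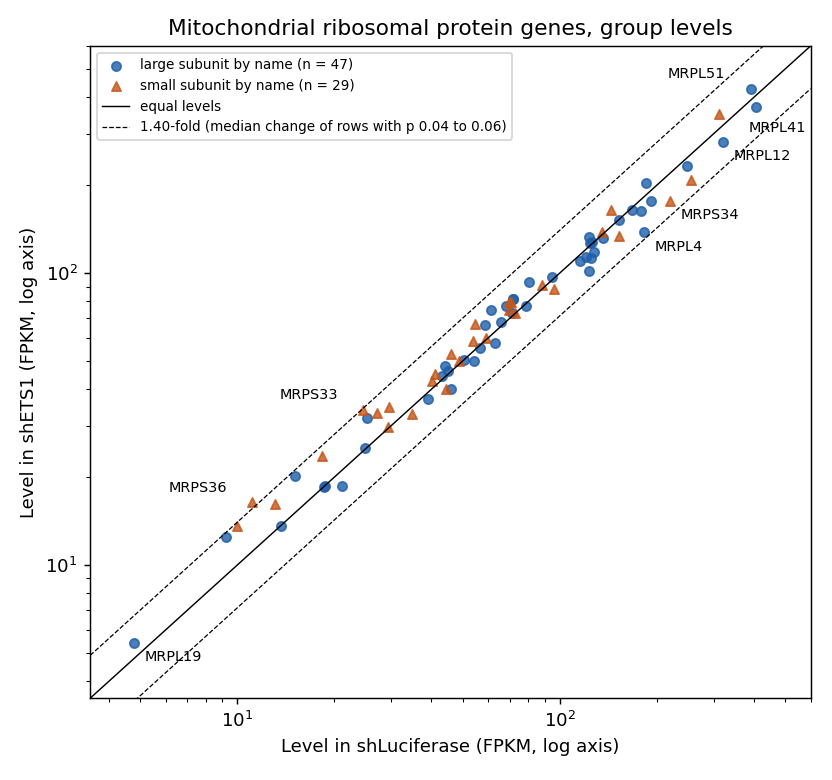
Level of each of the 76 genes in shETS1 (vertical log axis, FPKM) against its level in shLuciferase (horizontal log axis, FPKM), circles for the 47 MRPL and triangles for the 29 MRPS genes. The solid line marks equal levels and the dashed lines a change of 1.40-fold, the median among rows at levels within the range of the members with a p-value from 0.04 to 0.06. All members lie near the solid line, from MRPL19 at the lower end to MRPL41 and MRPL51 at the upper end, and MRPS36 lies just beyond a dashed line.

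Levels spanned a wide range within the family although its proteins, MRPS36 apart, are assembled into 1 particle. On the per-length FPKM scale, levels in shLuciferase ran from 4.78 (MRPL19) to 407 FPKM (MRPL41), a ratio of 85.1, and in shETS1 the ratio of highest to lowest was 78.9. The median was 66.8 FPKM in shLuciferase cells against 73.2 FPKM. In both groups 25 members reached 100 FPKM, while 10 were under 20 FPKM in shLuciferase and 9 in shETS1. The order of the levels was almost the same in both groups, with a Spearman rho of 0.99 across the 76 genes and also of 0.99 across the 10471 expressed rows with a GC value. Transcript length and mean level had a rho of -0.46 across the members and of -0.32 across those expressed rows. The part of length in the range of levels was not tested. Genes are not independent replicates and share libraries and gene models.

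The 8 most abundant members held 32.9% of the family's summed level in shLuciferase, and 7 of them were also among the highest 8 in shETS1. MRPL41, a protein found in mitochondrial and not in bacterial ribosomes, was at 407 and 372 FPKM, and MRPL51, of the same class, at 392 and 427 FPKM. MRPL12, the counterpart of the bacterial stalk protein L7/L12, was at 321 and 282 FPKM. These were followed by MRPS24, the counterpart of bacterial S3 at the entry of the message channel, at 311 and 351 FPKM. MRPS2, the S2 counterpart, was at 255 and 209 FPKM, MRPL37 at 248 and 234 FPKM, and MRPL20, the L20 counterpart, at 192 and 176 FPKM. Most of these abundant genes were thus slightly lower in shETS1, with MRPL51 and MRPS24 slightly higher.

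At the other end, MRPL19, the L19 counterpart, was at 4.78 and 5.42 FPKM. MRPL42 was at 9.25 and 12.5 FPKM, and MRPS36 at 11.1 and 16.4 FPKM. Of the 25 members that reached 100 FPKM in shLuciferase 8 were above 0, and of the 10 members under 20 FPKM 7 were.

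MRPS36 had the largest fold change of the family, 1.47-fold, for which the authors' deposited table gives p = 0.0312 and q = 0.600. Despite its symbol, its protein is now placed in the 2-oxoglutarate dehydrogenase complex and named KGD4, so it is no structural part of the ribosome. Next came MRPS33, a small subunit protein without a bacterial counterpart, at 24.5 and 34.01 FPKM (1.39-fold). MRPS14, the S14 counterpart, had a fold of 1.37 and MRPL42 a fold of 1.35. MRPL22, which lines the exit tunnel, was at 15.1 and 20.1 FPKM (1.33-fold) and MRPS18C, an S18 counterpart, at 18.3 and 23.7 FPKM (1.30-fold). All of these stood under 25 FPKM in the control, and none was called.

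On the lower side, MRPL4, the L4 counterpart, had a fold of 0.754 and a p-value of 0.0952 in the authors' deposited table. MRPS34 had a fold of 0.803 and MRPS2 a fold of 0.820. MRPL38, a protein of the central protuberance, was at 123 and 102 FPKM, MRPL34, the L34 counterpart, at 46.1 and 40.3 FPKM, and MRPS12, the S12 counterpart at the decoding site, at 153 and 134 FPKM. Of these 6 genes, 5 stood above 100 FPKM in the control, MRPL34 being the exception.

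**Figure D3:**
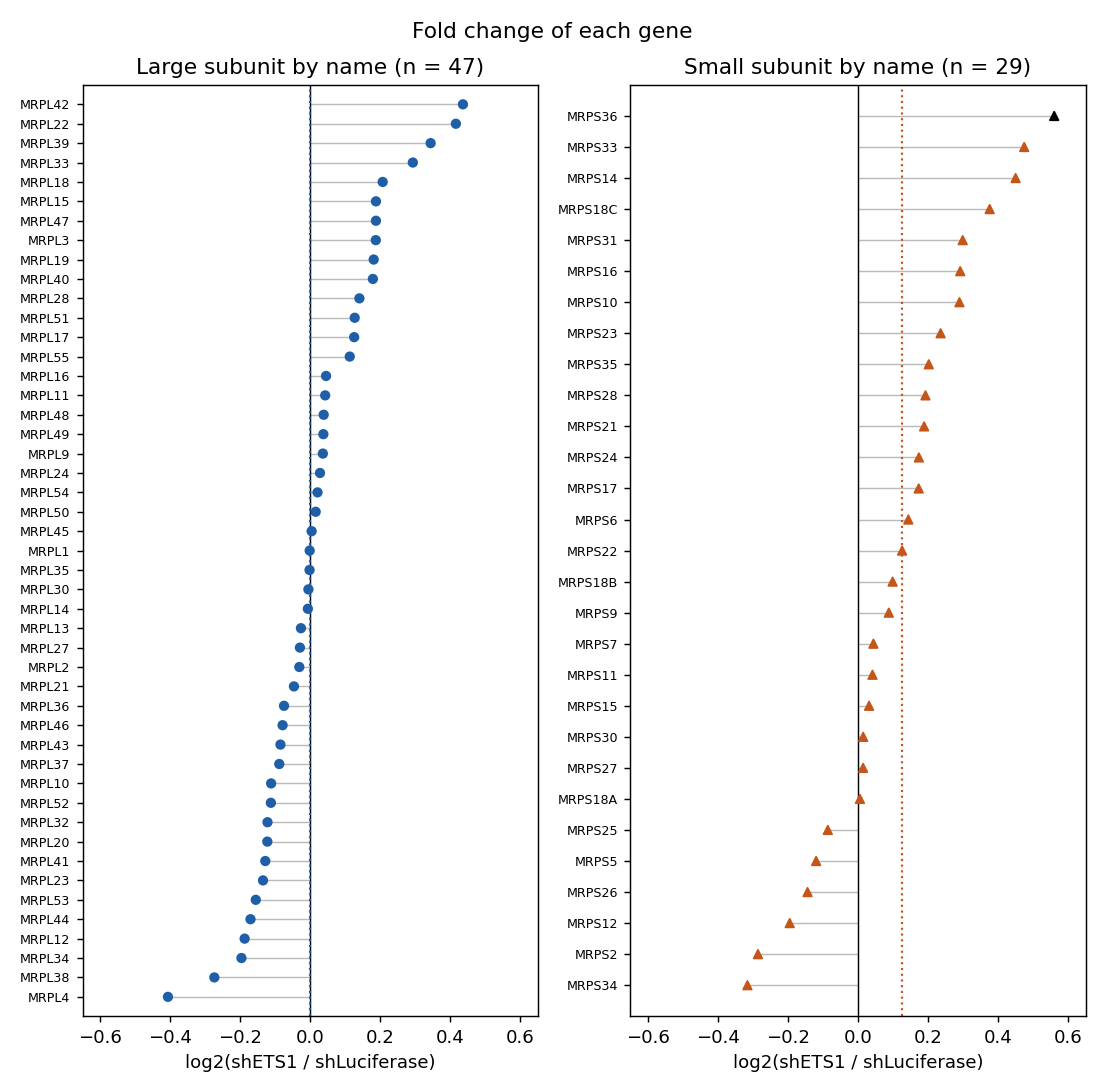
Horizontal axis, log2 ratio of shETS1 to shLuciferase for each MRPL gene (left, 47) and each MRPS gene (right, 29), in order of size. The solid vertical line marks no change, the dotted line the median of the panel, and the black point MRPS36, the only member with an unadjusted p under 0.05. The median is near 0 for MRPL genes and 0.13 for MRPS genes, and no gene passes 0.56 in size.

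The 2 name classes differed somewhat in their medians. Of the 47 MRPL genes 23 were above 0, with a median log2 fold change of -0.0019, and of the 29 MRPS genes 23 were above 0, with a median of 0.13. Summed levels were 4866 and 4774 FPKM for MRPL genes and 2272 and 2312 FPKM for MRPS genes. The names do not follow the structure in each case: MRPS30, at 29.3 and 29.6 FPKM, and MRPS18A, at 72.8 and 73.1 FPKM, sit in the large subunit of the human particle. With these placed there and MRPS36 set aside, the medians were 0.0036 for 49 large subunit genes and 0.13 for 26 small subunit genes. The median GC content of the transcripts was 50.7% for MRPL and 46.8% for MRPS genes, and with a trend on GC content removed the medians were 0.012 and 0.064. The difference between the classes was not tested, because genes are not replicates.

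Within the large subunit, the stalk recruits translation factors and drives their GTP hydrolysis. Its anchor MRPL10 was at 54.2 and 50.1 FPKM and MRPL11, at its base, at 71.2 and 73.3 FPKM, beside MRPL12 above. Thus 1 of 3 was above 0. In the central protuberance, which contacts the tRNAs, 3 of 6 were above 0 and the median was 0.0041. MRPL18 was at 80.5 and 92.9 FPKM, MRPL27 at 167 and 164 FPKM, MRPL40 at 58.7 and 66.5 FPKM, MRPL46 at 39.0 and 36.9 FPKM and MRPL48 at 43.3 and 44.4 FPKM. MRPL38 was the lowest of these by fold.

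Around the exit tunnel, through which new membrane proteins leave the particle, 4 of 6 genes were above 0, with a median of 0.016. MRPL23 was at 179 and 163 FPKM and MRPL24 at 125 and 127 FPKM. MRPL44, which has a fold of RNase III enzymes, was at 21.1 and 18.7 FPKM, and MRPL45, which holds the ribosome at the inner membrane, at 50.4 and 50.6 FPKM. MRPL47, the L29 counterpart, was at 71.9 and 81.9 FPKM. MRPL22 had the highest fold of these 6.

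For the small subunit, the list of decoding and message path proteins had 3 of 6 above 0 and a median of -0.039. MRPS5 was at 96.0 and 88.4 FPKM, MRPS7 at 88.3 and 91.0 FPKM and MRPS11 at 48.8 and 50.2 FPKM, beside MRPS2, MRPS12 and MRPS24 above. Recessive variants in some members cause mitochondrial disease: of 12 such genes none was called (0.812% of all tested rows were), 7 were above 0, and their median was 0.085. Among those not yet given, MRPL3 was at 67.9 and 77.4 FPKM, MRPS16 at 54.7 and 67.0 FPKM, MRPS22 at 53.8 and 58.7 FPKM, MRPS23 at 29.6 and 34.9 FPKM, MRPS25 at 34.9 and 32.8 FPKM and MRPS28 at 69.8 and 79.7 FPKM.

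Members were also split by descent. The 46 members with a bacterial counterpart had a median log2 ratio of 0.039 and a median level of 71.5 FPKM in shLuciferase. The 27 that occur in mitochondrial and not in bacterial ribosomes had a median of 0.015 and a level of 46.0 FPKM. In these classes 58.7% and 59.3% of genes were above 0, and with the GC trend removed the medians were 0.066 and -0.027. The difference was not tested. MRPL55, MRPS28 and MRPS36 were in neither list.

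Fold change within the family tended to follow the base composition of the transcripts. Across the 76 members, transcript GC content and log2 fold change had a Spearman rho of -0.55, beside -0.46 across the 10471 expressed rows with a GC value. In both cases the points share libraries. The 25 members of lowest GC content (33.5% to 43.3%) had a median log2 fold change of 0.19, with 19 above 0, and the 25 of highest GC content (52.3% to 71.9%) a median of -0.089, with 7 above 0. Other expressed rows in the same GC ranges had medians of 0.18 and -0.12. Between these, the 26 members of middle GC content had a median of 0.044, with 20 above 0. Other expressed rows of that range had a median of 0.014, with 52.9% above 0. With the GC trend of all expressed rows removed, the family's median was 0.053 and 43 of 76 were above 0. MRPS36 then stood at 0.28 in place of 0.56 and MRPL4 at -0.26 in place of -0.41, while MRPS33 had the highest value, 0.34, and MRPL13 the lowest, -0.35.

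Level moved with composition too. GC content and mean level had a rho of 0.71 across the members, against 0.26 across all expressed rows, and mean level and log2 fold change one of -0.43. In shLuciferase the 25 members of lowest GC content had a median of 25.2 FPKM and the 25 of highest GC content 126 FPKM. Abundant members therefore tended to be GC-rich, with exceptions. MRPL51 (48.9%) and MRPS24 (47.2%), both among the most abundant, were near the family's median GC content of 47.4%. The separate parts of level and composition in the fold changes were not tested.

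**Figure D4:**
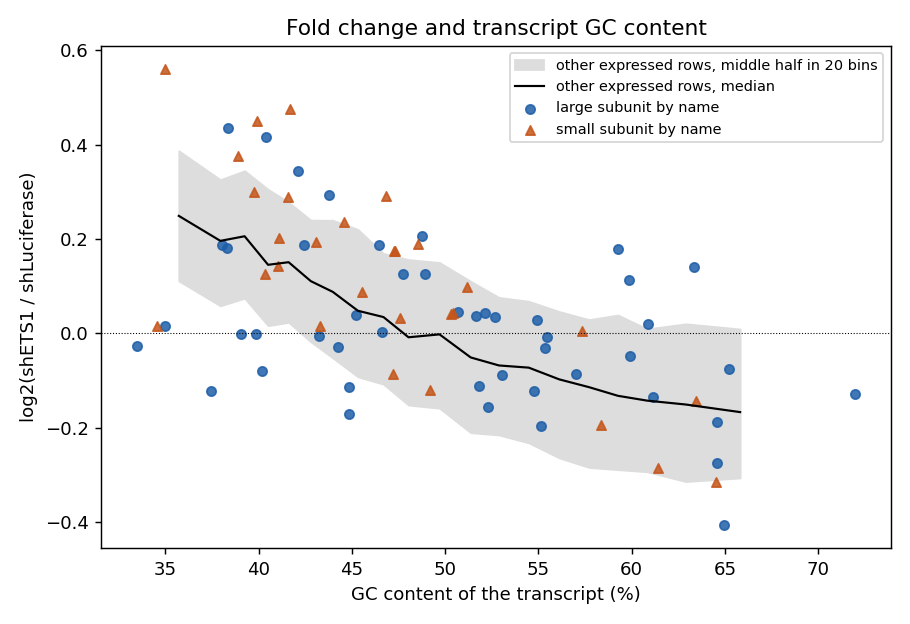
Log2 ratio of shETS1 to shLuciferase (vertical axis) against transcript GC content (horizontal axis, %) for MRPL genes (circles) and MRPS genes (triangles). The black line joins the medians of 20 bins of other expressed rows and the grey band covers the interquartile range of each bin. Medians of members fall as the line does, from 0.19 in the 25 of lowest GC content to -0.089 in the 25 of highest. Some members lie outside the band, such as MRPS33 above it and MRPL13 below it.

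Many members sit beside another active gene. In the deposited hg19 loci, 33 of 76 members (43.4%) had another expressed row within 1000 bases without overlap, against 21.9% of all expressed rows. In 16 of them the gap was under 100 bases. MRPL46 and MRPS11 lie 50 bases apart on chromosome 15 (89002708 to 89010633 and 89010684 to 89021861). They are 2 members of the family side by side, at 39.0 and 36.9 FPKM and at 48.8 and 50.2 FPKM. MRPL43 on chromosome 10 (102729290 to 102747272) lies 20 bases from C10orf2, which encodes the mitochondrial DNA helicase Twinkle and stood at 22.1 and 20.9 FPKM. MRPL49 lies 43 bases from FAU, a gene of the cytosolic ribosome, at 1657 and 1485 FPKM, and MRPL47 lies 140 bases from the complex I gene NDUFB5, at 53.2 and 67.9 FPKM. Of the 41 neighbouring rows that were no members, none was called in the authors' deposited table, where 0.812% of all tested rows were.

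For 13 members the deposited locus is shared with another expressed row, so that reads of the genes may not be separable: MRPL2, MRPL9, MRPL12, MRPL20, MRPL30, MRPL40, MRPL49, MRPS7, MRPS12, MRPS16, MRPS18C, MRPS24 and MRPS25. MRPS12 shares its locus with SARS2, the mitochondrial seryl-tRNA synthetase, which stood at 40.3 and 41.7 FPKM. MRPL12 shares one with SLC25A10, a mitochondrial dicarboxylate carrier at 35.3 and 33.1 FPKM. None of the 19 rows in these shared loci was called, against 0.812% of all tested rows. The locus of MRPS18B, at 69.6 and 74.6 FPKM, is on a haplotype contig of chromosome 6, which repeats sequence of the main chromosome. Members lay on 21 chromosomes in all.

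Another 8 proteins that belong to the particle or, as OXA1L, bind it carry other names. None of their genes was called, against 0.812% of all tested rows. Their median log2 fold change was -0.10, with 3 above 0. AURKAIP1 was at 437 and 412 FPKM, GADD45GIP1 at 375 and 326 FPKM and MRP63 at 330 and 263 FPKM. ICT1, a peptidyl-tRNA hydrolase built into the large subunit, was at 65.8 and 48.0 FPKM with a p-value of 0.0572 in the authors' deposited table. DAP3, a GTP-binding protein of the small subunit, was at 59.8 and 65.6 FPKM, CHCHD1 at 55.8 and 55.9 FPKM and PTCD3 at 8.13 and 9.61 FPKM. OXA1L, the insertase that receives new proteins from the tunnel, was at 66.6 and 61.2 FPKM.

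The wider machinery of mitochondrial translation gave no call either. Since 0.812% of all tested rows were called, the lack of a call in lists of this size says little about them. Of all expressed rows, 52.6% were above 0. None of 16 translation factors was called, 12 were above 0 and their median was 0.13, or 0.058 with the GC trend removed. TUFM, the elongation factor Tu, was at 249 and 237 FPKM, TACO1 at 46.4 and 46.1 FPKM and TSFM at 33.0 and 36.0 FPKM. Of 17 mitochondrial aminoacyl-tRNA synthetases none was called and 9 were above 0. SARS2 was the most abundant, followed by CARS2 at 29.4 and 30.3 FPKM and YARS2 at 21.4 and 21.7 FPKM. None of 25 assembly and rRNA modification factors was called, with 13 above 0. The GTPase ERAL1, a chaperone of the small subunit RNA, was at 80.9 and 76.1 FPKM, TRUB2 at 74.3 and 70.1 FPKM and MTG1 at 66.6 and 74.7 FPKM.

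For mitochondrial transcription and RNA handling, none of 14 genes was called and 9 were above 0. SLIRP, which stabilises mitochondrial messages with LRPPRC, was at 493 and 504 FPKM. The RNase ELAC2 was at 76.6 and 69.8 FPKM and HSD17B10, a subunit of mitochondrial RNase P, at 65.9 and 68.5 FPKM. Across these lists and the 8 genes with other names, 80 genes in all, the median log2 ratio was 0.043. With the GC trend removed it was -0.0065. None of the 80 had an unadjusted p under 0.05, against 6.94% of all tested rows.

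Of the regulators known to act on nuclear genes for mitochondrial proteins, 11 of 12 were tested and none was called, against 0.812% of all tested rows. PPARGC1A, at 0.0389 and 0.0378 FPKM, was the untested one. GABPA, the DNA-binding subunit of GABP, was at 3.29 and 4.11 FPKM and its partner GABPB1 at 8.601 and 8.76 FPKM. NRF1 was at 5.49 and 5.13 FPKM. The coactivator PPARGC1B, at 2.47 and 1.59 FPKM, is given p = 0.0306 and q = 0.596 in the authors' deposited table. PPRC1, a related coactivator, was at 35.0 and 27.5 FPKM, and ESRRA at 32.7 and 27.3 FPKM. The most abundant regulator, MYC, was at 185 and 183 FPKM. YY1 was at 25.1 and 24.1 FPKM and SP1 at 7.73 and 7.63 FPKM. GABPB2 was at 2.51 and 2.43 FPKM and CREB1 at 3.39 and 2.78 FPKM. Of the 11 tested, 2 were above 0, against 52.6% of all expressed rows.

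The 2 most similar families are given side by side, without a test between them and beside the 0.812% of all tested rows that were called. None of 80 tested cytosolic ribosomal protein genes was called, and the median log2 ratio over them was 0.043, at a median level of 2922 FPKM in shLuciferase, 43.7 times that of the mitochondrial family. None of 80 tested nuclear-encoded respiratory chain genes was called, with a median of 0.020 at 152 FPKM, 2.28 times the level of the mitochondrial ribosomal genes. With the GC trend removed the medians were 0.039 for the cytosolic family and 0.0017 for the respiratory chain genes, beside 0.053 for the mitochondrial ribosomal family. The SD of the log2 fold changes across genes was 0.19 in the mitochondrial ribosomal family, 0.15 in the cytosolic one and 0.23 in the respiratory chain genes, against 0.28 over all expressed rows at levels within the range of the members. The respiratory chain list was taken by the start of the symbol, so some of its rows may encode no subunit. It holds ATP5J2-PTCD1, whose symbol joins those of different genes and whose log2 fold change of 1.12 was the highest of the list. The SD without that row was not computed.

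**Figure D5:**
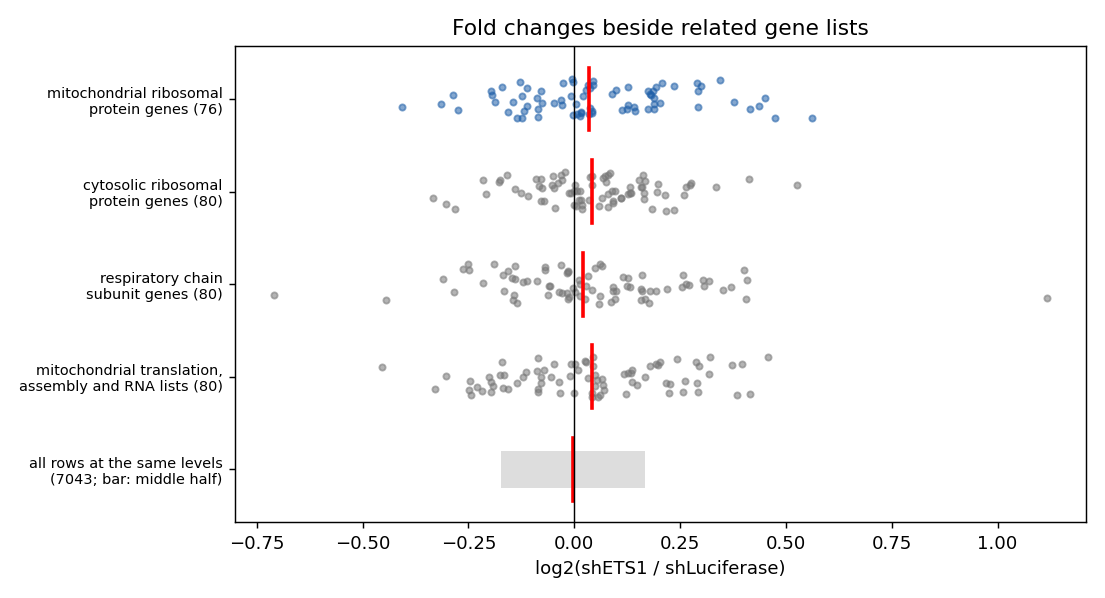
Horizontal axis, log2 ratio of shETS1 to shLuciferase for each gene of the mitochondrial ribosomal family (76) beside cytosolic ribosomal protein genes (80), rows with symbols of respiratory chain subunit genes (80, with ATP5J2-PTCD1 the highest) and the lists of mitochondrial translation, assembly and RNA genes (80). Points are genes, with vertical scatter that carries no value. Red bars are medians, and the grey bar covers the interquartile range of the 7043 rows at levels within the range of the members. All medians lie between -0.0031 and 0.043.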

How the data were processed

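Polyadenylated RNA of 3 shLuciferase and 3 shETS1 samples was sequenced. Per the submitters' processing notes, the tools were Cufflinks 2.1.1, SAMtools 0.1.18, Bowtie2 2.0.6 and TopHat2 2.0.7, on build hg19. No source used here gives the annotation or the scaling between libraries. The authors merged each group's samples into 1 FPKM value per gene, and the deposited table adds a p-value and a q-value, which equals a Benjamini-Hochberg adjustment over all genes tested (largest difference 5.16e-07). Depth is unknown, and the limma test planned for sample values could not be run. No strand-marking step is described.

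From these values log2 ratios of the FPKM levels, counts and medians were computed with Python 3.11.15, numpy 2.4.6 and pandas 2.3.3; rows with a mean of at least 1 FPKM count as expressed. Called genes have a deposited q-value no higher than 0.05. GC content of transcripts was taken from GENCODE 29 on GRCh38, matched by present or former symbol, for 10471 of 10676 expressed rows (98.1%), taking the transcript with the longest coding sequence; the GC trend is a cubic fit, tested on simulated data. Loci are those of the table, with 1 added to the start. Promoter windows and their coordinates are RefSeq's on GRCh38.p14, matched by symbol.

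The family, the gene lists and the tests were chosen with earlier results of these data known. Named members are those with an unadjusted p under 0.05, the 6 highest and 6 lowest fold changes, the 8 highest and 4 lowest levels, the role lists and the members with shared loci. From each pathway list at most 3 genes, among its most abundant, are named; the other regulators, the neighbours and the proteins with other names were chosen after their values were seen, as were the printed promoters.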

Additional observations from a re-analysis of the deposited data

How the results depend on the processing

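The table holds group values, so no library could be left out. No paired analysis was possible because there is 1 value per gene and group. No member was called at q-values of 0.01 or 0.10 either; at an unadjusted p under 0.05 there was 1. The median log2 fold change of members (0.034) was 0.019 when centred on all expressed rows, 0.053 with the GC trend removed and 0.020 with the 8 genes with other names added and MRPS36 left out. The median of MRPL genes (-0.0019) had no stable sign: it was -0.017 when centred, 0.00085 without shared loci, 0.012 with the GC trend removed and 0.0036 with subunits by structure. That of MRPS genes (0.13) was 0.11 when centred, 0.064 with the GC trend removed and 0.12 with 1 FPKM added to each level, above 0 in each. The ratio of summed levels (0.993) was 0.998 without the 5 most abundant members and 0.982 when scaled to the median of expressed rows. The share of members with a core in any window (63.2%) was 17.6% for CCGGAAGT. The members' median GC content (47.4%) was 46.6% without shared loci, and the log2 fold change of ETS1 was -1.23 when centred. Alternatives on membership and structure, and the last pair, were chosen after seeing the data.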
